A study of Mus musculus with 27 samples.

Results

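The genes described here are 8 protein kinases that lie outside the textbook TLR4 and IL-4 receptor pathways and that the study lists among the targets of its clinical kinase inhibitors. They are Camkk2, Cdk17, Clk1, Csnk2a1, Csnk2a2, Map4k2, Map4k5 and Mink1. They were picked by gene symbol, at a point when earlier results of these data were known. The rule itself used no measured value, but the study took part of its targets because their genes responded in these same samples. The counts of responding genes below are therefore not independent evidence that these genes respond, nor of a direction. The same holds for a count above the share of all genes. The table held 45070 genes, all 8 kinases were in it, and all 8 were among the 13901 genes that reached a normalised read count of 10 in at least 3 samples.

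The cells were wild type bone marrow-derived macrophages (BMDMs), which are grown from mouse marrow in culture and are not a cell line. Every group was kept for 1 h in DMSO, the solvent of the inhibitors, and no inhibitor was added. One group was then left untreated, 4 groups received 10 ng/ml lipopolysaccharide (LPS, the bacterial ligand of TLR4) and 4 received 10 ng/ml of the cytokine IL-4, with harvest after 0.5, 1, 2 or 4 h. There were 3 replicates per group and 27 samples in all. The labels do not say whether replicates were separate cultures or animals, so the p-values measure the spread between these samples, which may be technical. Marrow was taken from male C57/BL6 mice that were 6 to 8 weeks old.

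What was sequenced was chromatin-associated RNA, which is rich in transcripts still being made, so that its level follows transcription more closely than total RNA does. Values are normalised read counts, scaled by the authors on genes that did not change across samples. They summed to 2469768 to 2790981 per sample in the untreated and IL-4 groups and to 3571492 to 4058199 in the LPS groups, and raw read totals were not used here. Of the macrophage markers listed, 7 (Adgre1, Csf1r, Itgam, Cd68, Mertk, Fcgr1 and Lyz2) each reached 10 normalised read counts in every sample. The summed level of 12 markers of other cells was 33 to 48 in untreated, 18 to 126 in LPS and 40 to 185 in IL-4 samples. Cd3e, Ly6g and Hba-a1 were at 0 throughout. The endothelial marker Pecam1 ran from 2 to 149 (5 to 9 untreated), the fibroblast marker Col1a1 from 8 to 95, and the neutrophil marker S100a8 reached 16. The part of other cells in the results was not tested. In bulk RNA a lower value can mean less RNA per cell or fewer cells that make it, and these cannot be told apart.

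A kinase moves phosphate from ATP onto other proteins, and these 8 do so in different settings. Csnk2a1 and Csnk2a2 encode the alternative catalytic subunits of CK2, a constitutively active kinase with very many substrates, which pairs them with the regulatory subunit Csnk2b. Map4k2, Map4k5 and Mink1 are STE20-family kinases that can start MAP kinase cascades leading to JNK, a pathway best known in macrophages downstream of TLRs and TNF receptors. Camkk2 is activated by calcium-calmodulin and phosphorylates CaMKI, CaMKIV and the energy sensor AMPK, while Clk1 phosphorylates the SR proteins that steer splicing and Cdk17 is a PCTAIRE kinase of the CDK family.

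Promoter sequence was looked at for the members whose courses differed most. RefSeq promoter windows (GRCm38.p6, 250 bases before to 50 after the annotated start) were given for 6 of the 8 genes, not for Cdk17 and Clk1. The last 150 bases before the start are shown for the most LPS-induced member (Camkk2, chr5:122779411-122779560, minus strand), the member with the widest gap between stimuli (Mink1, chr11:70562731-70562880, plus strand) and the CK2 pair (Csnk2a1, chr2:152226690-152226839, plus strand, and Csnk2a2, chr8:95488821-95488970, minus strand). Each reads 5′ to 3′ along its gene, and capitals mark GGGCGG on either strand, the core of a GC box.
Camkk2: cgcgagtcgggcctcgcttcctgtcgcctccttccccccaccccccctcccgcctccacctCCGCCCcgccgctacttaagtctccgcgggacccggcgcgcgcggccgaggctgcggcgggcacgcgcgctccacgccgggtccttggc
Mink1: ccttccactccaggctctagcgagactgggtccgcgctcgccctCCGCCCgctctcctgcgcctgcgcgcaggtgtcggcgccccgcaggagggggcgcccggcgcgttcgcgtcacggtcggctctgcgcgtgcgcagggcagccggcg
Csnk2a1: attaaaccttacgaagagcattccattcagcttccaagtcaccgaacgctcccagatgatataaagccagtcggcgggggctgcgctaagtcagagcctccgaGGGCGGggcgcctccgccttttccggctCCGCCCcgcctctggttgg
Csnk2a2: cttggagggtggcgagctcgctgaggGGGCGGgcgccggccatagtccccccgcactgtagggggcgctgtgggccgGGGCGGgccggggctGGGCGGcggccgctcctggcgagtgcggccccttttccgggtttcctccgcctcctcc
GGGCGG was present in the 300-base windows of 6 of 6 members and in 35.7% of all 32851 promoter windows. The members' windows held 57.3% to 73.3% G and C, against a median of 52.7% over all windows. The NF-κB consensus, the site of the factors that TLR4 activates, was matched in the windows of 2 of 6 members and in 6.93% of all, with the match in capitals below.
Map4k2, chr19:6341032-6341057, plus strand: ctgcttctGGGACTTCCCcgcgcaac
Csnk2a1, chr2:152226834-152226859, plus strand: ggttgggaGGGGGCTTCCgcttccgg
CCAAT was found in 2 of 6 (Camkk2 and Map4k2; 37.4% of all windows) and CCGGAAG in 1 of 6 (Csnk2a1; 8.86%). The letters TGACGTCA (1.79% of all windows), TGACTCA or TGAGTCA (5.2%), CACGTG (7.15%), TTCNNNGAA (8.3%) and the STAT6 palindrome, TTC and GAA 4 bases apart (6.95%), were in none of the 6. Both strands were searched, no match of one motif overlapped a match of another, and a match is a description of letters and not a binding site.

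In untreated macrophages all 8 kinases were transcribed. Levels between genes were compared per kb of gene width, since chromatin RNA carries introns. On that scale Clk1 stood highest at 52.5 normalised read counts per kb. Cdk17 (7.75), Map4k2 (7.68), Mink1 (5.91), Csnk2a2 (5.29), Csnk2a1 (4.02), Camkk2 (3.59) and Map4k5 (2.26) followed. Per kb of transcript the order was Clk1 (206), Cdk17 (171), Mink1 (61.0), Csnk2a2 (60.0), Csnk2a1 (52.6), Map4k5 (45.4), Camkk2 (35.5) and Map4k2 (23.5). Clk1 and Cdk17 led on both scales, and Map4k2 changed its place most. Whether reads in introns were counted is not given in the sources used here. The plot of every sample's normalised read count shows the courses from these starting levels.

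**Figure D1:**
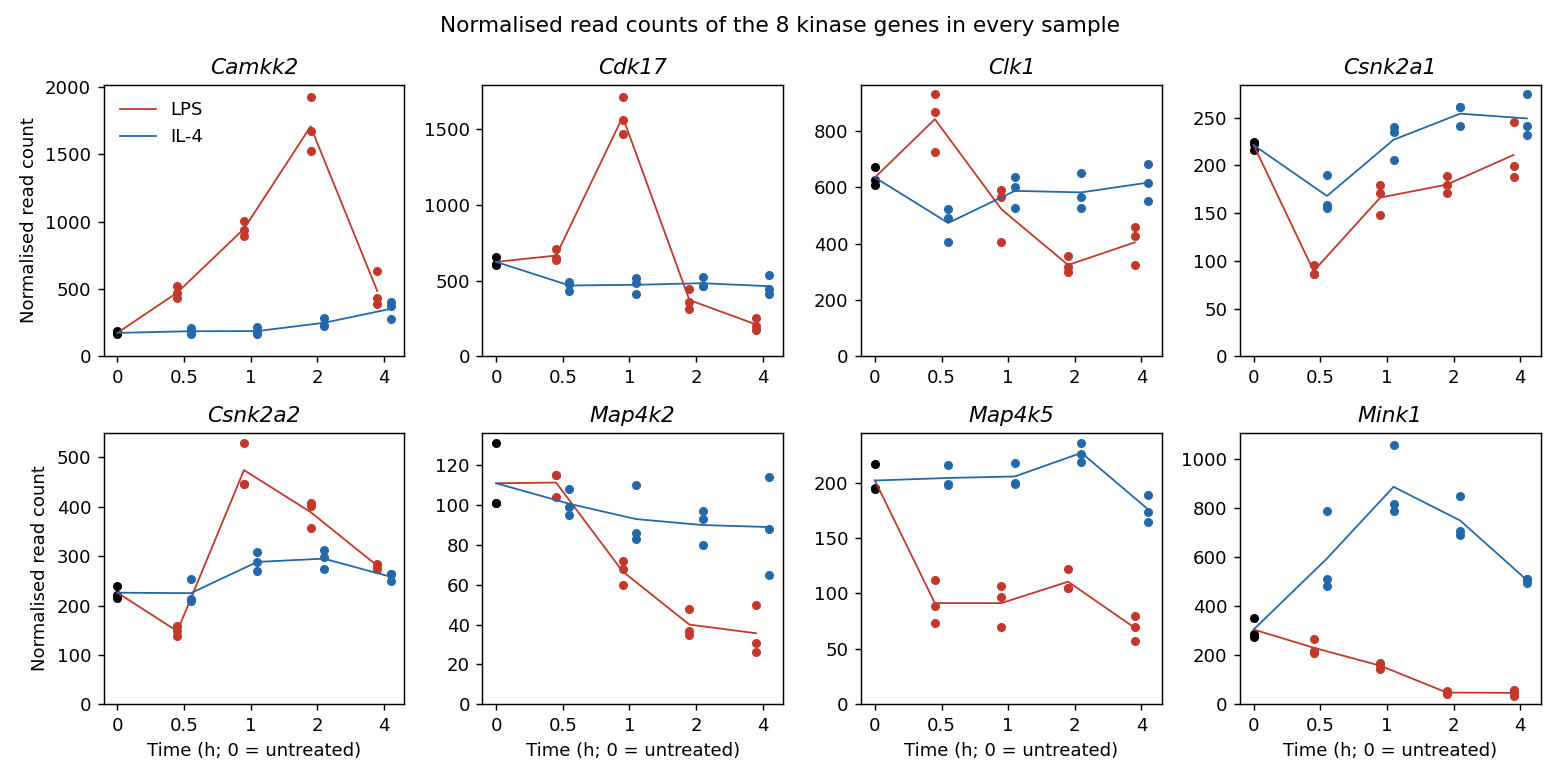
Normalised read count (y axis, linear, from 0) of each kinase gene in all 27 samples against time after stimulus in hours (x axis, not to scale; 0 is untreated). Points are single samples (black untreated, red LPS, blue IL-4) and lines join group means; Camkk2 and Cdk17 peak at 2 h and 1 h of LPS, and Mink1 climbs with IL-4 and drops with LPS.

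The question put to the LPS course was which of these genes changed at any time. All 8 passed the limma F test over the 4 times (Benjamini-Hochberg adjusted p from 2.53e-05 for Map4k5 to 3.53e-10 for Camkk2), as did 87.6% of all genes tested, so that passing sets the members apart little. Fold changes are on the log2(value + 1) scale. Over all tested genes their median was −0.24, −0.30, −0.29 and −0.26 over the 4 times. Among the 6827 genes with a mean of at least 50, which include all 8 members, it was −0.12, −0.06, −0.06 and −0.07. A member's change is to be read beside both shifts. The median over all tested genes moved to between −0.01 and −0.06 when samples were rescaled by median of ratios. It moved to between −0.73 and −0.91 when all samples were given equal totals. Directions were not alike. At 0.5 h 2 members were higher (19.6% of all genes) and 3 lower (34.4%), at 1 h 3 were higher (24.8%) and 4 lower (39%), at 2 h 2 were higher (26.9%) and 5 lower (39%), and at 4 h 2 were higher (25.9%) and 5 lower (37.6%). Counting either direction, 5, 7, 7 and 7 members were called over the 4 times, against 53.9%, 63.8%, 65.9% and 63.5% of all genes. The median over the 8 members fell from −0.19 at 0.5 h to −0.36, −0.81 and −1.11 at 1, 2 and 4 h.

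With IL-4 fewer members were called at each time, but the fold change was not always smaller. For Mink1 it was 0.93 and 1.53 at 0.5 and 1 h of IL-4, against −0.40 (not called) and −0.94 with LPS, and for Cdk17 at 0.5 h it was −0.42, against 0.09 (not called). Of the 8, 7 passed the F test of that course at adjusted p under 0.05 in limma, against 40.3% of all genes, Clk1 at 0.049 and Map4k2 not at 0.50. Of these 7 calls, 6 were lost when replicate 2 was left out, and the same 6 when replicate 3 was. All 7 held with replicate 1 left out. They also held in a fit of all samples that takes replicate number into account (a replicate block). Fits that leave out a replicate hold fewer samples, and which replicates carried the changes was not tested. Mink1 was the 1 member still called without replicate 2, without replicate 3, or with replicates 2 and 3 averaged into 1 sample (adjusted p = 0.022, 0.015 and 0.016). These fits called 2234, 2169 and 2503 of all 13901 genes. Such IL-4 counts, here and for the related lists below, are to be read beside those. Against untreated, 4 members were called at 0.5 h (16.3% of all genes), 3 at 1 h (21%), 4 at 2 h (27.6%) and 3 at 4 h (25.9%). Without replicate 2 these counts were 0, 1, 1 and 1 (773, 1305, 1886 and 1656 over all genes). Without replicate 3 they were 1 at each time (878, 1318, 1868 and 1584 over all genes). The median of the 8 stayed between −0.07 and 0.18. The heat map of fold changes sets both courses side by side.

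**Figure D2:**
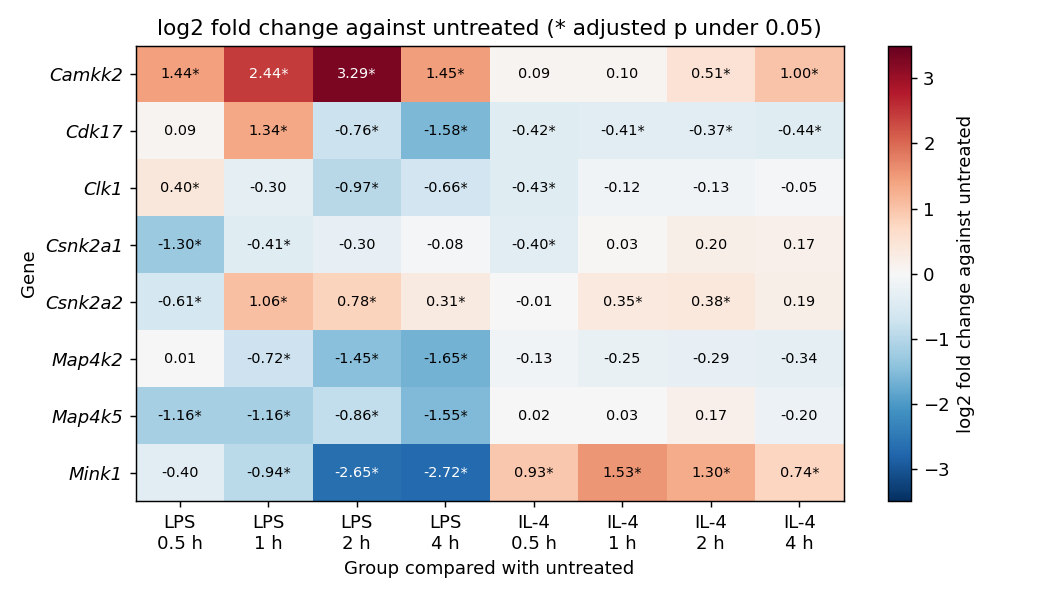
log2 fold change of each kinase gene (rows) against untreated over the 4 times of LPS and of IL-4 (columns), from limma fits with 3 samples per group; the colour scale runs from −3.5 (blue) to 3.5 (red). An asterisk marks a Benjamini-Hochberg adjusted p under 0.05; the extremes are Camkk2 at 2 h of LPS (3.29) and Mink1 at 4 h of LPS (−2.72).

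Camkk2 was the most LPS-induced member. Its gene lies at chr5:122731170-122779410 on the minus strand (GRCm38) and overlaps no other annotated gene. It measured 185, 170 and 165 in the 3 untreated samples, in replicate order as in all lists of 3 that follow. With LPS it read 520, 468 and 432 at 0.5 h, 1009, 891 and 941 after 1 h, 1929, 1525 and 1672 after 2 h, then 634, 436 and 387 at 4 h. Every LPS sample was above every untreated one, and the 0.5 h and 4 h samples overlapped each other. The log2 fold change was 1.44, 2.44, 3.29 and 1.45 (SE 0.16 each; limma adjusted p from 6.19e-11 at 2 h to 1.84e-06 at 0.5 h). Each step up to 2 h was called in limma (1.00 from 0.5 to 1 h and 0.85 from 1 to 2 h), and from 2 to 4 h it fell by 1.84 on the log2 scale (adjusted p = 7.29e-07).

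IL-4 raised Camkk2 later and less. The samples read 206, 186 and 165 at 0.5 h, 217, 168 and 175 after 1 h, 284, 233 and 228 after 2 h, then 279, 373 and 404 at 4 h. The first 2 times overlapped the untreated samples and the last 2 did not. At 2 h the log2 fold change was 0.51 ± 0.15 (SE; limma adjusted p = 0.018, and 0.15 without replicate 2 or 0.11 without replicate 3), and at 4 h it was 1.00 ± 0.15 (adjusted p = 0.00017). In the direct contrast LPS exceeded IL-4 by 1.35, 2.34, 2.78 and 0.45 on the log2 scale. The 4 h difference (95% interval 0.12 to 0.78, limma adjusted p = 0.017) was 0.08 without replicate 1, whose 2 values lie farthest apart, and turned to −0.17 with equal totals. In order of level, only LPS at 4 h and 0.5 h, IL-4 at 4 h and 2 h, and the lowest 3 groups (IL-4 at 1 h, IL-4 at 0.5 h, untreated) overlapped with a neighbour.

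Genes around Camkk2 in its pathway moved in both directions with LPS. Of 16 CaMK and AMPK genes listed, 14 were tested and 14 passed the LPS F test (87.6% of all genes did), and 11 passed without replicate 2 or without replicate 3. Of all 13901 genes, 10191 passed without replicate 2 and 10057 without replicate 3. Such LPS counts for each list are to be read beside those. Of the 14, 4 had their largest change upward (32.9% of all genes passed with that direction) and 10 downward (54.7%). Called lower were 6, 5, 7 and 7 of them over the 4 times (34.4%, 39%, 39% and 37.6% of all genes). Called higher were 3, 3, 2 and 2 (19.6%, 24.8%, 26.9% and 25.9% of all genes). The list's median was −0.36, −0.06, −0.48 and −0.63 over the 4 times, against −0.24 to −0.30 for all genes. Prkag2, a regulatory subunit of AMPK, went from 761 ± 63.5 (SD, n = 3) untreated to 12.3 ± 0.577 at 4 h of LPS (log2 −5.83, limma adjusted p = 2.96e-14). Camk1, a kinase that Camkk2 activates, went from 77.0 ± 10.4 to 3 ± 1.73 (log2 −4.36). With IL-4, 8 of 14 passed (40.3% of all genes), and 4 without replicate 2 and 3 without replicate 3. Camk2d, a CaMKII catalytic subunit, rose from 1530 ± 59.1 to 3528 ± 177 at 1 h of IL-4 (log2 1.2, adjusted p = 8.66e-06), and Camk1d fell from 4915 ± 138 to 2295 ± 214 at 4 h (log2 −1.10, adjusted p = 1.29e-06). Both moved further in the same direction with LPS (Camk2d log2 2.22 at 1 h, Camk1d log2 −1.95 at 4 h). All 4 of these genes overlap other annotated genes, whose reads may be shared.

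Cdk17 rose and fell within the LPS course. It is the PCTAIRE kinase at chr10:93160876-93241342 on the plus strand, and the microRNA gene Mir1931 inside it held at most 6 normalised read counts. It read 655, 606 and 610 untreated. With LPS it read 637, 652 and 708 at 0.5 h, 1717, 1469 and 1563 after 1 h, 447, 310 and 358 after 2 h, then 253, 201 and 176 at 4 h. The 1 h samples were the highest of all 27 and the 4 h samples the lowest 3 in the series, while those at 0.5 h overlapped untreated. At 1 h the log2 fold change was 1.34 ± 0.15 (SE; limma adjusted p = 1.13e-06), and at 2 and 4 h it was −0.76 and −1.58 (adjusted p = 0.00027 and 1.30e-07). At 0.5 h it was 0.09 (adjusted p = 0.61) and −0.42 with equal totals (adjusted p = 0.018). The step from 1 to 2 h was −2.1 on the log2 scale (adjusted p = 1.52e-08), the largest between successive times of any member in either course.

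Under IL-4 Cdk17 sat slightly below untreated at every time. It read 432, 477 and 494 at 0.5 h, 413, 487 and 517 after 1 h, 525, 461 and 462 after 2 h, then 536, 411 and 442 at 4 h, all under the lowest untreated sample. The log2 fold changes were −0.42, −0.41, −0.37 and −0.44 (SE 0.11 each; limma adjusted p from 0.0087 to 0.021). None of these passed without replicate 2 or without replicate 3 (adjusted p from 0.098 to 0.19), and no step between successive IL-4 times was called. The 4 IL-4 groups overlapped one another. LPS exceeded IL-4 by 0.51 at 0.5 h and 1.75 at 1 h, and lay below it by 0.39 at 2 h and 1.14 at 4 h. The 2 h difference (adjusted p = 0.014) was −0.12 with median-of-ratios rescaling (adjusted p = 0.52), −0.30 without replicate 2 (0.19) and −0.40 without replicate 3 (0.088), and the 0.5 h difference was 0.13 with equal totals (0.45).

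Among 7 further PCTAIRE and cyclin Y genes, all 7 passed the F test with LPS (87.6% of all genes), 5 without replicate 2 and 6 without replicate 3. With IL-4, 4 passed (40.3% of all genes), 2 without replicate 2 and 1 without replicate 3. The largest movers went in opposite directions. Cdk14, a PFTAIRE kinase of the same branch that works with cyclin Y at the membrane, went from 2900 ± 254 untreated to 15155 ± 1910 at 2 h of LPS (log2 2.38, limma adjusted p = 1.12e-10) and to 557 ± 106 at 4 h of IL-4 (log2 −2.39, adjusted p = 7.70e-09). Cdk18, which with Cdk16 and Cdk17 forms the PCTAIRE group, went from 195 ± 33.5 to 23.3 ± 6.11 at 2 h of LPS (log2 −3.03). Cdk15 went from 21.3 ± 3.06 to 6 ± 2.65 at 4 h of IL-4 (log2 −1.73, adjusted p = 0.0026, and 0.065 without replicate 3). Cdk14 and Cdk15 overlap other annotated genes, whose reads may be shared. All 4 with a called IL-4 course had their largest change downward, as Cdk17 did (20.9% of all genes passed with that direction and 19.4% upward).

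Clk1 rose early with LPS and then fell below its starting level. The gene is at chr1:58411988-58424088 on the minus strand and shares no base with another annotated gene. It measured 609, 671 and 625 untreated. LPS samples read 725, 869 and 932 at 0.5 h, 406, 567 and 592 after 1 h, 299, 356 and 317 after 2 h, then 325, 428 and 460 at 4 h. Those at 0.5 h were all above and those from 1 h on all below the untreated samples. The early log2 fold change of 0.40 ± 0.16 (SE) passed narrowly in limma (adjusted p = 0.046). It did not pass without replicate 2 (0.20), without replicate 3 (0.28) or with no low-value filter (0.11), and it was −0.11 with equal totals. The later fold changes were −0.30 (adjusted p = 0.11), −0.97 (7.19e-05) and −0.66 (0.0020). With equal totals the 1 h change was −0.88 (adjusted p = 0.00026).

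With IL-4 Clk1 dipped at 0.5 h, at 406, 490 and 524, below every untreated sample (log2 −0.43 ± 0.12 SE, limma adjusted p = 0.020, 0.18 without replicate 2 and 0.12 without replicate 3). It then read 527, 600 and 635 after 1 h, 528, 651 and 567 after 2 h, then 550, 683 and 617 at 4 h, overlapping untreated each time. The stimuli thus lay apart at 0.5 h, where LPS was 0.83 above IL-4 (95% interval 0.52 to 1.14, limma adjusted p = 4.92e-05), and in the other direction at 2 and 4 h (−0.84 and −0.62, adjusted p = 2.56e-05 and 0.00080). At 1 h the difference was −0.19 (interval −0.49 to 0.12, adjusted p = 0.28), and −0.66 with equal totals (0.00055). Replicate 1 read lower than the mean of replicates 2 and 3 in 9 of 9 groups for Clk1.

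The splicing genes that work with Clk1 were tested as a list of 17 (other CLKs, SRPKs, SR proteins and Tra2 genes). With LPS all 17 passed the F test (87.6% of all genes), 13 without replicate 2, 14 without replicate 3 and 15 with equal totals (12597 of all 13901 genes). Their largest change was upward in 7 (32.9% of all genes) and downward in 10 (54.7%), and the list's median stayed between −0.26 and 0.21 over time. Srpk2, the other main kind of SR protein kinase, went from 996 ± 42.5 to 204 ± 19.5 at 4 h (log2 −2.28, limma adjusted p = 2.30e-11). Tra2a, a splicing activator, went from 353 ± 54.0 to 1108 ± 275 at 2 h (log2 1.63). With IL-4, 9 of 17 passed (40.3% of all genes did), 7 upward and 2 downward. Without replicate 2 or without replicate 3, 4 passed, and 5 did with no low-value filter (4816 of 30272 genes). Among the 9, Clk4, the closest relative of Clk1, rose from 194 ± 2.52 to 455 ± 29.0 at 4 h (log2 1.23, adjusted p = 3.95e-06), where Clk1 did not pass. Srpk2 and Clk4 each overlap 1 other annotated gene. Srsf9 rose from 41.7 ± 7.02 to 117 ± 5.69 at 2 h of IL-4 (log2 1.48).

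The 2 catalytic subunits of CK2 responded differently to LPS. Csnk2a1 (chr2:152226840-152281852, plus strand) read 225, 223 and 216 untreated, and Csnk2a2 (chr8:95446096-95488820, minus strand) read 240, 216 and 222. Neither gene overlaps another annotated gene. With LPS Csnk2a1 read 96, 86 and 86 at 0.5 h, 148, 180 and 171 after 1 h, 189, 180 and 171 after 2 h, then 188, 246 and 199 at 4 h. On the deposited scale it dropped at once and climbed back, with the 4 h samples overlapping untreated. Its log2 fold changes were −1.30, −0.41, −0.30 and −0.08 (SE 0.13 each; limma adjusted p = 6.70e-07, 0.010, 0.052 and 0.61). Relative to the median of all genes only the first stands out, at −1.06, the others being −0.11, −0.01 and 0.18. Among genes with a mean of at least 50 that median was nearer 0, at −0.06 for 1 h and 2 h. The 1 h call did not pass without replicate 2 or 3 (adjusted p = 0.0504 and 0.0785), nor with median-of-ratios rescaling (0.33). The 2 h change passed with no low-value filter (0.039), a mean of at least 50 (0.041), pseudocount 8 (0.048) and a replicate block (0.039). It also passed with equal totals (8.73e-06) and without replicate 1 (0.035), and in none of the other alternatives. With equal totals the 4 h change was −0.69 (adjusted p = 0.00024), so the return to the untreated level depended on the scaling.

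Csnk2a2 dropped at 0.5 h as well and then overshot. It read 158, 148 and 138 at 0.5 h, 530, 447 and 446 after 1 h, 408, 402 and 358 after 2 h, then 283, 275 and 284 at 4 h of LPS. The 0.5 h samples were below and all later ones above the untreated samples. The log2 fold changes were −0.61, 1.06, 0.78 and 0.31 (SE 0.11 each; limma adjusted p = 0.00026, 6.66e-07, 1.40e-05 and 0.021). The step from 0.5 to 1 h was 1.67 (adjusted p = 1.93e-08). With equal totals the 2 h change was 0.12 (adjusted p = 0.31) and the 4 h change was −0.29, and the 4 h call did not pass without replicate 2 (0.18) or 3 (0.15).

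A ratio of both subunits within a sample does not depend on how samples were scaled. The Csnk2a1 to Csnk2a2 ratio of normalised read counts was 0.981 ± 0.048 (SD, n = 3) untreated. In the LPS groups it was 0.607 ± 0.021 at 0.5 h, 0.356 ± 0.066 after 1 h, 0.464 ± 0.015 after 2 h, then 0.754 ± 0.12 at 4 h. In 12 of 12 LPS samples it was below all 3 untreated samples. Pooled over times the log2 ratio was 0.91 lower than untreated (2-sided exact permutation test, p = 0.0044, the smallest that 455 regroupings can give, 0.0088 adjusted over the 2 stimuli). That test treats the 12 LPS samples as independent, which same-numbered samples may not be. With a replicate block the exact permutation p was 0.016 (0.032 adjusted), the smallest that 125 regroupings can give. Without replicate 2 or 3 the size was the same (−0.92 and −0.93) but the smallest p that can be reached is 0.044, or 0.089 adjusted. Each time point on its own, at 3 against 3, cannot go below 0.10 and was not tested.

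**Figure D3:**
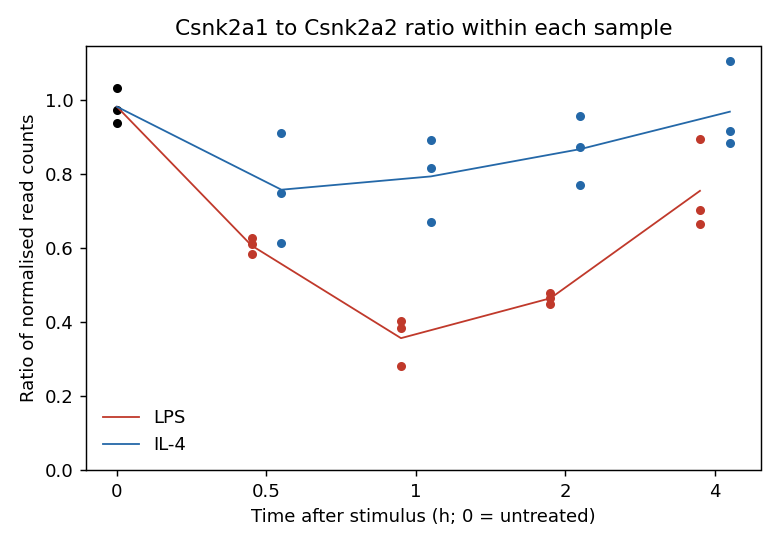
Ratio of the Csnk2a1 to the Csnk2a2 normalised read count within each sample (y axis, linear, from 0) against time after stimulus in hours (x axis, not to scale; 0 is untreated). Points are samples (black untreated, red LPS, blue IL-4) and lines join group means; the LPS mean reaches 0.356 at 1 h and the untreated mean is 0.981.

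IL-4 shifted the CK2 genes little. Csnk2a1 read 190, 155 and 159 at 0.5 h, 235, 206 and 240 after 1 h, 241, 261 and 261 after 2 h, then 275, 241 and 232 at 4 h. It was below untreated at 0.5 h (log2 −0.40 ± 0.10 SE, limma adjusted p = 0.010) and above it at 2 and 4 h without passing the test (0.20 and 0.17, adjusted p = 0.15 and 0.24). Csnk2a2 read 209, 253 and 213, then 288, 308 and 269, then 313, 299 and 273, then 249, 263 and 263 over the 4 times. Its log2 fold change passed at 1 and 2 h (0.35 and 0.38 ± 0.089 SE, adjusted p = 0.012 and 0.0055). None of these 3 calls passed without replicate 2 or without replicate 3 (adjusted p from 0.059 to 0.21). The ratio was 0.757 ± 0.15, 0.793 ± 0.11, 0.867 ± 0.093 and 0.968 ± 0.12 over the 4 times, below all untreated samples in 10 of 12. Pooled, the log2 ratio was −0.23 relative to untreated (exact permutation p = 0.092), and −0.31 without replicate 1 (exact p = 0.044). In the direct contrast LPS was below IL-4 for Csnk2a1 by 0.90, 0.45 and 0.50 at 0.5, 1 and 2 h (limma adjusted p = 4.74e-07, 0.0015 and 0.00051). The later 2 did not pass with median-of-ratios rescaling (0.27 and 0.12). At 4 h LPS was 0.25 lower (adjusted p = 0.061), and the difference was −0.87 with equal totals (6.37e-07). That difference also passed with a mean of at least 50 (0.049) and without replicate 2 (0.044). For Csnk2a2 LPS was 0.60 lower at 0.5 h, and 0.71 and 0.40 higher at 1 and 2 h (adjusted p = 1.76e-05, 1.03e-06 and 0.0010), the last turning to −0.23 with equal totals. At 4 h it was 0.12 higher (interval −0.08 to 0.32, adjusted p = 0.29). The 4 h difference was −0.50 with equal totals (adjusted p = 5.89e-05) and 0.40 with median-of-ratios rescaling (0.0032), so its direction depended on the scaling.

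Csnk2b, the regulatory subunit that CK2 tetramers share, was low throughout and overlaps 2 annotated genes. It was 22.0 ± 4.36 (SD, n = 3) untreated and highest at 2 h of LPS, at 38.3 ± 10.4 (log2 0.76 ± 0.26 SE, limma adjusted p = 0.017). That call did not pass without replicate 2 (0.39, adjusted p = 0.28), without replicate 3 (0.88, adjusted p = 0.084) or with equal totals (0.12, adjusted p = 0.68). With IL-4 its course did not pass the F test (adjusted p = 0.38).

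Mink1, the misshapen-like STE20 kinase, fell with LPS and rose with IL-4 at 1, 2 and 4 h. Among the members Cdk17 at 1 h and Clk1 at 0.5 h also had called changes of opposite direction, with LPS the higher. The gene lies at chr11:70562881-70614482 on the plus strand. It read 352, 288 and 275 untreated. LPS samples read 265, 216 and 211 at 0.5 h, 167, 160 and 145 after 1 h, 53, 41 and 49 after 2 h, then 60, 34 and 45 at 4 h. Each LPS sample was below each untreated one, and the 2 h and 4 h groups overlapped. The log2 fold change was −0.40 at 0.5 h (limma adjusted p = 0.086), then −0.94, −2.65 and −2.72 (SE 0.19 each; adjusted p = 0.00045, 6.43e-09 and 4.67e-09). Most of the fall came between 1 and 2 h, at 1.71 on the log2 scale (adjusted p = 2.25e-06).

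With IL-4 Mink1 read 789, 513 and 483 at 0.5 h, 1056, 789 and 817 after 1 h, 849, 709 and 691 after 2 h, then 513, 496 and 511 at 4 h. All 12 were above the highest untreated sample. The log2 fold changes were 0.93, 1.53, 1.30 and 0.74 (SE 0.17 each; limma adjusted p = 0.0016, 1.60e-05, 6.32e-05 and 0.0055). The calls at 1 and 2 h held in every alternative tried. At 0.5 h the call did not pass without replicate 2 (adjusted p = 0.067), and at 4 h it passed neither without replicate 2 nor without replicate 3 (0.11 each). Replicate 1 read above the mean of replicates 2 and 3 in 9 of 9 groups, by a median of 0.31 on the log2 scale.

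The direct contrast put Mink1 far apart between the stimuli. The difference, LPS minus IL-4, was −1.34, −2.48, −3.95 and −3.46 on the log2 scale over the 4 times (SE 0.18 each; limma adjusted p = 1.46e-06, 3.67e-11, 4.17e-15 and 4.47e-14). At 2 h the means were 47.7 ± 6.11 and 750 ± 86.5 (SD, n = 3 each), and 218 of 13901 tested genes had a more negative difference. A second gene on the opposite strand, Gm51905, shares 5613 bases with Mink1 and moved with it, from a mean of 35.3 untreated to 6.33 at 2 h of LPS and 122 at 1 h of IL-4. Whether counting used strand is not given in the sources used here, so reads of the pair cannot be told apart.

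**Figure D4:**
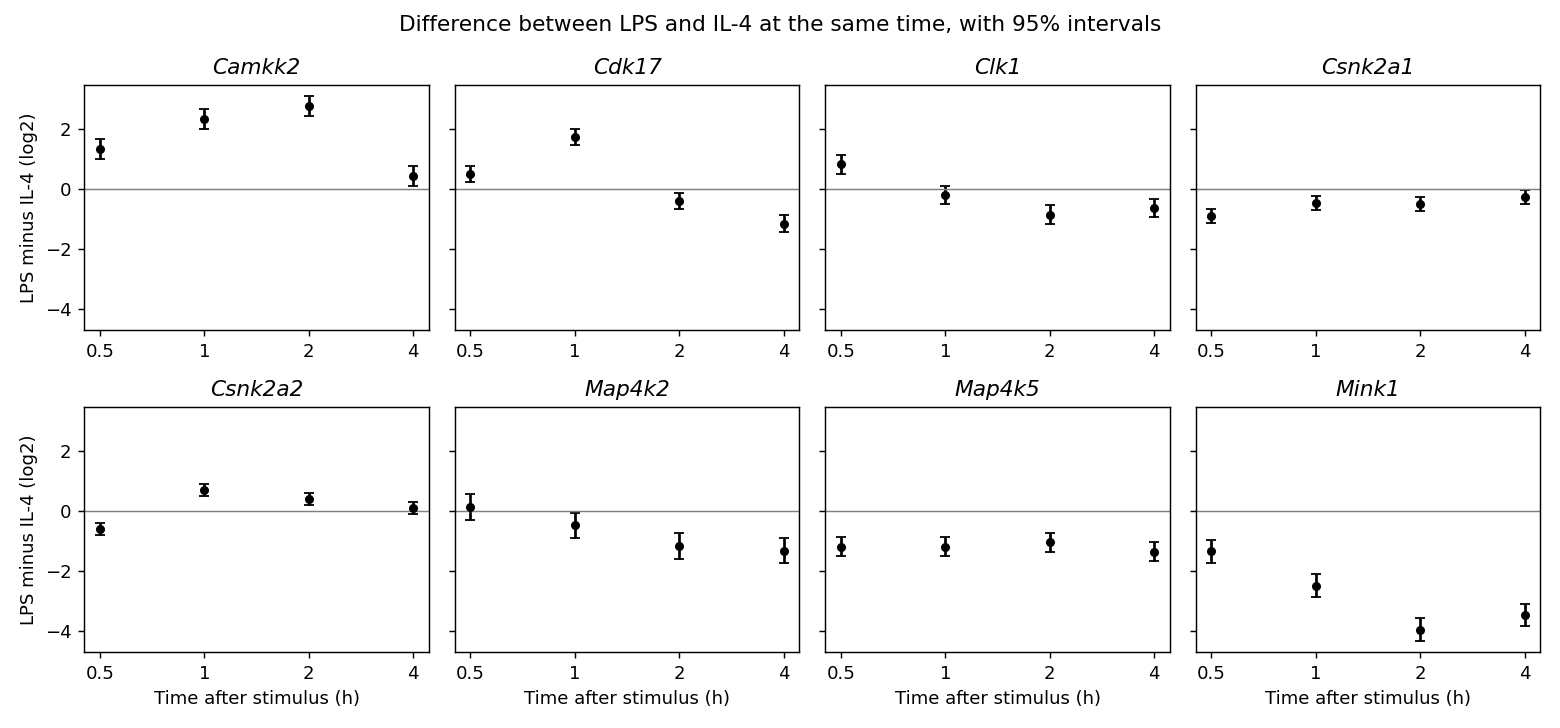
Difference between LPS and IL-4 at the same time on the log2 scale (y axis; above 0 is higher with LPS) for each kinase gene against time in hours (x axis, not to scale). Points are limma estimates over 27 samples and bars 95% intervals; Mink1 lies lowest, at −3.95 at 2 h, and Camkk2 highest, at 2.78 at 2 h.

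Map4k5 and Map4k2, germinal centre kinases of the same STE20 group, fell with LPS on different schedules. Map4k5 (chr12:69803757-69893163, minus strand) read 194, 217 and 195 untreated. At 0.5 h of LPS it was already at 89, 73 and 112, and it then read 70, 97 and 107 after 1 h, 105, 122 and 105 after 2 h, then 70, 57 and 80 at 4 h. No LPS sample reached an untreated one, and the first 3 times overlapped in part. The log2 fold changes were −1.16, −1.16, −0.86 and −1.55 (SE 0.19 each; limma adjusted p = 0.00012, 8.31e-05, 0.00096 and 3.66e-06). Genes on the other strand overlap it, 4930512B01Rik by 38124 bases and 4931403G20Rik by 9986, and both also passed the LPS F test with lower means at every LPS time. Their reads and those of Map4k5 may be shared. Atl1, on that strand too, shares 59 bases and passed as well (limma adjusted p = 0.00013), its mean going from 36.3 untreated to 86.3 at 4 h of LPS.

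Map4k2 (chr19:6341160-6355619, plus strand), one of the 2 members with an NF-κB match in the promoter window, had the lowest mean read count of the members in untreated cells. It read 101, 101 and 131 untreated and was not called at 0.5 h of LPS, at 115, 104 and 115 (log2 0.01, 95% interval −0.45 to 0.48, limma adjusted p = 0.97). It then read 60, 68 and 72 after 1 h, 35, 48 and 37 after 2 h, then 26, 50 and 31 at 4 h, all below untreated. The log2 fold changes were −0.72, −1.45 and −1.65 (SE 0.22 each; adjusted p = 0.0092, 2.72e-05 and 7.23e-06). The 1 h call did not pass without replicate 3 (0.11) or with median-of-ratios rescaling (0.056). The gene Gm14966 shares 87 bases at its end.

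IL-4 left both MAP4K genes near their starting level. Map4k2 read 99, 95 and 108 at 0.5 h, 83, 110 and 86 after 1 h, 93, 80 and 97 after 2 h, then 65, 114 and 88 at 4 h. No contrast passed, the log2 fold changes running from −0.13 to −0.34 with 95% intervals between −0.74 and 0.26. Map4k5 read 199, 216 and 198, then 218, 199 and 200, then 226, 219 and 236, then 189, 174 and 165, overlapping untreated at 0.5 and 1 h only. It passed the F test (limma adjusted p = 0.025) with no single contrast against untreated called, and its fall of 0.37 on the log2 scale from 2 to 4 h was called (adjusted p = 0.017, and 0.22 or 0.41 without replicate 2 or 3). LPS was below IL-4 for Map4k5 at every time, by 1.17, 1.18, 1.03 and 1.35 (adjusted p from 3.53e-08 to 2.21e-06). For Map4k2 it was below by 1.16 at 2 h and 1.31 at 4 h (adjusted p = 2.80e-05 and 5.39e-06). At 0.5 h the difference was 0.14 (adjusted p = 0.59). At 1 h it was −0.47 (adjusted p = 0.051), with every LPS sample below every IL-4 sample, and whether it passed depended on the processing. It passed when genes had a mean of at least 50 (0.047), with pseudocount 8 (0.044) and with equal totals (0.00028), and it was −0.19 with median-of-ratios rescaling (0.40).

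Other STE20-pathway kinases did not share one direction with LPS. All 14 listed passed the F test (87.6% of all genes), 8 with their largest change upward (32.9%) and 6 downward (54.7%), and the list's median rose from −0.05 at 0.5 h to 0.39 at 4 h while the median of all genes stayed below 0. Map4k1, the haematopoietic relative of Map4k2 and Map4k5, went from 71.0 ± 28.0 to 7.33 ± 3.51 at 4 h (log2 −3.11, limma adjusted p = 1.82e-06). Tnik, a close relative of Mink1 that overlaps another annotated gene, went the other way, from 17.0 ± 5.20 to 101 ± 12.7 at 2 h (log2 2.54, adjusted p = 2.08e-06). With IL-4, 9 of 14 passed (40.3% of all genes) and all 9 had their largest change downward (20.9% of all genes). However, 1 of the 14 was called without replicate 2 and 2 were without replicate 3 (2234 and 2169 of all 13901 genes). With no low-value filter 5 were called (4816 of 30272 genes). Taok3 went from 1554 ± 97.6 to 928 ± 44.2 at 1 h (log2 −0.74, adjusted p = 3.88e-05). Stk26 went from 25.0 ± 12.5 to 6.67 ± 1.15 at 4 h (log2 −1.64, adjusted p = 0.0082, and 0.12 or 0.18 without replicate 2 or 3), and it too overlaps another gene.

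**Figure D5:**
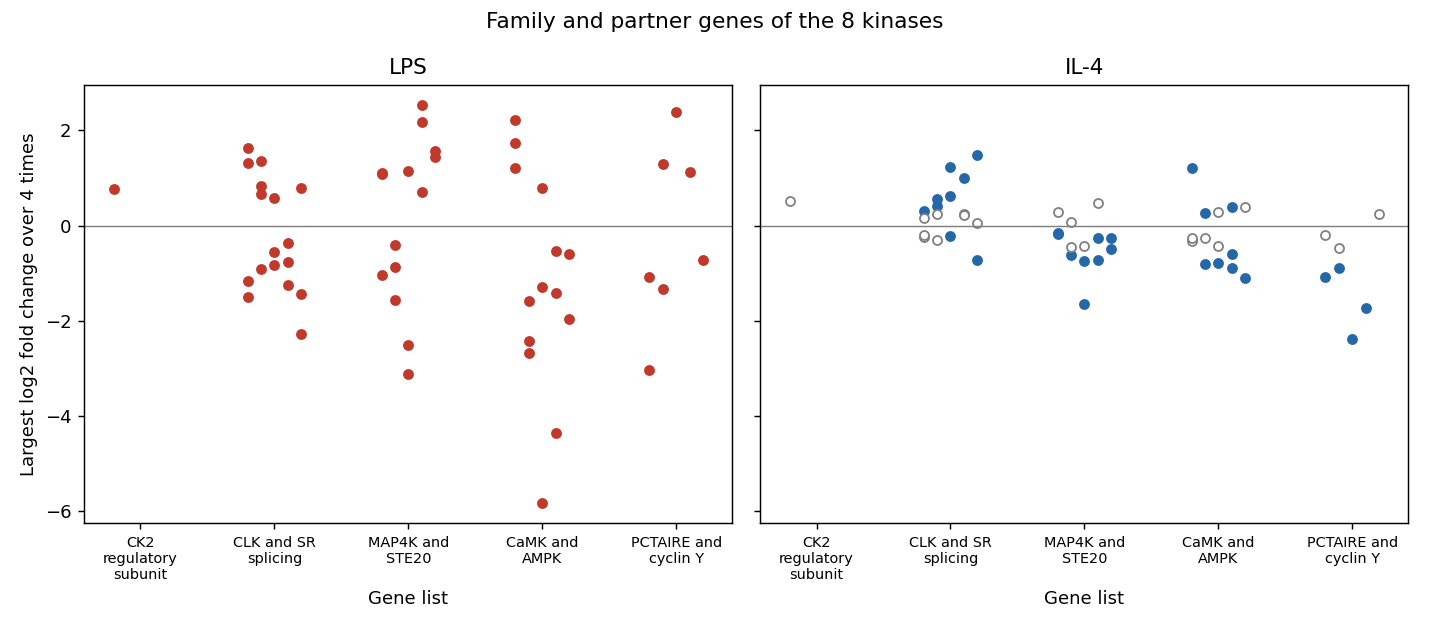
Largest log2 fold change against untreated over the 4 times (y axis) of each tested gene in 5 lists related to the kinases (x axis), with LPS on the left and IL-4 on the right. Each point is 1 gene, filled where its course passed the limma F test at adjusted p under 0.05 and open where it did not; points spread on both sides of 0 with LPS, from −5.83 (Prkag2) to 2.54 (Tnik).

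Over the whole set, the direct contrast between the stimuli called 7 members at 0.5 h (53.8% of all genes), 6 at 1 h (64.5%), 8 at 2 h (68.6%) and 6 at 4 h (68%), and its F test called 8 of 8 (88.1%). Successive LPS times differed for 7 members from 0.5 to 1 h (49.7%), 6 from 1 to 2 h (43.3%) and 4 from 2 to 4 h (22.9%). Successive IL-4 times differed for 3 (Csnk2a1, Csnk2a2 and Mink1, each upward, 7.82%), 0 (9.4%) and 1 (Map4k5, 5.48%), and for none without replicate 2 or without replicate 3. Over all 13901 genes those fits called 68, 166 and 11 without replicate 2 and 80, 203 and 32 without replicate 3. Beside the 0 from 1 to 2 h, 1 member had an unadjusted p under 0.05 in limma, Camkk2 (0.41, adjusted p = 0.10).

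Each member's course over the 27 samples was compared with those of 6156 protein-coding genes with a mean of at least 50, as a description by Pearson correlation of log2 values, with samples sharing the 9 groups. The 2 most alike genes were Snx8 (0.98) and Marchf3 (0.98) for Mink1, Rock2 (0.96) and Parvb (0.94) for Cdk17, and Myo1g (0.96) and Luzp1 (0.94) for Camkk2. They were Hadhb (0.95) and Suclg1 (0.93) for Csnk2a1, Dync1li1 (0.93) and Rc3h1 (0.93) for Csnk2a2, and Pnpla8 (0.91) and Mapk8 (0.90) for Clk1. For Map4k2 they were Arhgap4 (0.95) and Kmt5c (0.94), and for Map4k5 Uxs1 (0.94) and Uchl5 (0.94). Among the members themselves the highest value was between Map4k5 and Mink1 (0.81) and the lowest between Camkk2 and Mink1 (−0.75), while the CK2 pair stood at 0.41.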

How the data were processed

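Chromatin-associated RNA of 27 BMDM samples was measured with Smart-seq2 libraries. Reads were mapped by the authors to mm10 with TopHat2 2.1.1, reads with several hits or in blacklisted regions were removed (bedtools 2.29.2), and reads were counted per RefSeq gene (GRCm38.p6). The submitters' processing notes also name DESeq2 and R 3.6.2. The deposited values are read counts scaled by the authors on invariant genes and rounded to whole numbers, named here a score; being scaled they suited no count test. The table's other columns hold the authors' gene annotation, used here for position, width and gene type.

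Values were analysed as log2(value + 1) with limma 3.58.1 (R 4.3.3, mean-variance trend) over 13901 genes with at least 10 in at least 3 samples. Each course was fitted with its own 12 samples and the 3 untreated ones, the direct contrast with all 27, and p-values were Benjamini-Hochberg adjusted over all tested genes, threshold 0.05. The study's impulse model was not run. The fit was tested on simulated data, where the F test of the direct contrast recovered the smallest share of changed genes of the tests checked. That share was short of the level first set for it, which was then lowered. The CK2 ratio was tested in Python 3.11.15 with a 2-sided exact permutation test. Intervals are 95% intervals.

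The 8 members and all gene lists were chosen with earlier results of these data known. All 8 members are named; of each related list, the 2 genes with the largest fold change among those past the F test were named per stimulus; and per member the 2 protein-coding genes of highest correlation. Replicate numbers come from the labels. Same-numbered samples of different groups deviated together in 106 of 108 comparisons (correlation over 0.1, lowest 0.090, median 0.31). This was short of all, so the fit without a replicate block was kept. Same-numbered samples may nevertheless be matched, which the main p-values do not take into account. The calls that changed with a block are given at the end. Replicates 2 and 3 read closer to each other than to replicate 1. Alternatives were another filter, pseudocount 8, 2 rescalings, a replicate block, leaving out each replicate and averaging replicates 2 and 3; for the related genes these were chosen after seeing the data. One further macrophage marker is not reported here.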

Additional observations from a re-analysis of the deposited data

How the results depend on the processing

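All 8 members passed the LPS course test and the direct contrast test under each alternative run. For IL-4 the 7 calls became 5 with no low-value filter and 1 in each of the fits without replicate 2, without replicate 3 or averaging replicates 2 and 3, and the 4 members with a step between IL-4 times became 0 in these last 3; leaving out a replicate gave 1 to 7 course calls. Fewer samples enter those fits. With equal totals 6 fold changes turned: Cdk17 (−0.42) and Clk1 (−0.11) at 0.5 h and Csnk2a2 (−0.29) at 4 h of LPS, and LPS minus IL-4 for Csnk2a2 at 2 h (−0.23) and 4 h (−0.50) and Camkk2 at 4 h (−0.17). Equal totals put 1621 genes higher and 7255 lower at 0.5 h of LPS, median of ratios 3536 and 3807, and the deposited scale 2718 and 4775. The Csnk2a1 to Csnk2a2 log2 ratio under LPS was −0.93 to −0.88 with a replicate left out and −0.92 with replicates 2 and 3 averaged (adjusted exact p = 0.089), and under IL-4 −0.31 to −0.12 (exact p = 0.044 without replicate 1).

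A fit with a replicate block called 8 members with LPS and 7 with IL-4, and the exact permutation p adjusted over stimuli for the CK2 ratio was 0.032 with LPS and 0.11 with IL-4. The block called 8 further member contrasts. With LPS against untreated they were Mink1 at 0.5 h (adjusted p = 0.020), Clk1 at 1 h (0.018) and Csnk2a1 at 2 h (0.039), and between stimuli Map4k2 at 1 h (0.025). The other 4 were steps, Clk1 from 2 to 4 h of LPS (0.035) and, with IL-4, Clk1 from 0.5 to 1 h (0.0092) and Camkk2 and Mink1 from 2 to 4 h (0.032 and 0.0019), so that 6 members in place of 4 had an IL-4 step. Over all genes it raised calls between successive IL-4 times from 1087, 1306 and 762 to 2099, 2319 and 1726. Of 27 samples, 19 correlated best with one of their own number. Over all genes the IL-4 course gave 5606 calls, 2234 without replicate 2, 2169 without replicate 3 and 2503 with replicates 2 and 3 averaged, and the LPS course gave 12174, or 6504 among the 6827 genes with a mean of at least 50. Raw depth was not used, so precision at low values rests on the spread between replicates and on the mean-variance trend over all tested genes.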
